A study of Mus musculus with 8 samples.

Results

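The 10 genes described here encode Toll-like receptors, the membrane sensors of microbial molecules in mouse innate immunity, and were measured in epididymal fat of prednisolone-treated and vehicle-treated mice. They were taken by name: Tlr1, Tlr2, Tlr3, Tlr4, Tlr5, Tlr6, Tlr7, Tlr8, Tlr9 and Tlr13. All 10 were found among the 22180 genes that a probe set names by 1 symbol, each with 1 such probe set. Total RNA of the left epididymal fat pad, a white adipose depot, was hybridised to Affymetrix Mouse Gene 2.0 ST arrays, with 1 array for each of 8 male C57BL/6 mice. The GC+ group held 4 mice that received the synthetic glucocorticoid prednisolone daily in sweet potato puree, at a dose the labels give as 40 mg per kg per square metre, for 4 weeks from 6 weeks of age. The GC- group held 4 mice that received the puree alone. Every mouse of both groups was weaned at 3 weeks of age onto an n-6 rich high fat diet that supplied 45% of its energy as fat, and the fat pad was taken at 10 weeks. No group on another diet is part of the comparison, which asks what the glucocorticoid does to transcripts of this depot under this diet.

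Toll-like receptors carry leucine-rich repeats that bind ligand and a cytoplasmic TIR domain that recruits adaptors. Tlr1, Tlr2, Tlr4, Tlr5 and Tlr6 sit at the cell surface and bind bacterial lipids or protein, while Tlr3, Tlr7, Tlr8, Tlr9 and Tlr13 sit in endosomes and bind nucleic acids. All of these except Tlr3 signal through the adaptor Myd88 to NF-kB; Tlr3 uses Ticam1, and Tlr4 uses both. In adipose tissue macrophages are a main source of many of these receptors, and adipocytes express some as well.

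Array medians lay between 6.09 and 6.13 on the log2 scale of robust multiarray averaging (RMA). Adipocyte markers read high on every array, with a mean over 7 measured markers of 12.46 to 12.69 in prednisolone mice and 12.18 to 12.60 in vehicle mice. Transcripts of the epididymis, the sperm duct beside this fat pad, differed widely between mice. The score of 10 epididymis markers, the mean of their log2 values minus their 8-array means, was above 1 in prednisolone mouse 2 (3.69) and in vehicle mice 1 and 4 (2.98 and 1.65). It lay between -2.62 and 0.58 in the other 5 mice, so the difference of each receptor is also given without those 3 mice. Differences of other genes, lists and scores are given with those 3 mice included, and how they change without them was not examined. Because a brightness depends on the probes, levels of different receptors are not set against each other.

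No Toll-like receptor transcript was found to differ between prednisolone and vehicle mice beyond the spread between mice. In limma, which fits a linear model to every gene and adjusts p by Benjamini-Hochberg, 0 of 10 receptors passed an adjusted p of 0.05 over the 14787 tested genes. The background was 0 genes called in either direction, 0% of those tested. At an unadjusted p under 0.05 the same fit held 0 of 10 receptors and 842 genes, 5.69% of those tested. Adjusted p of the receptors ran from 0.768 for Tlr6 to 0.994 for Tlr9. The prednisolone mean was above the vehicle mean in 8 receptors and below it in 2, and 54.6% of all tested genes had the higher prednisolone mean. The median difference, prednisolone minus vehicle, was 0.13 on the log2 scale over the receptors and 0.02 over all tested genes. The groups overlapped in all 10 receptors, and did not overlap in 3.2% of tested genes. The plot of values by group shows this overlap for each receptor.

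**Figure D1:**
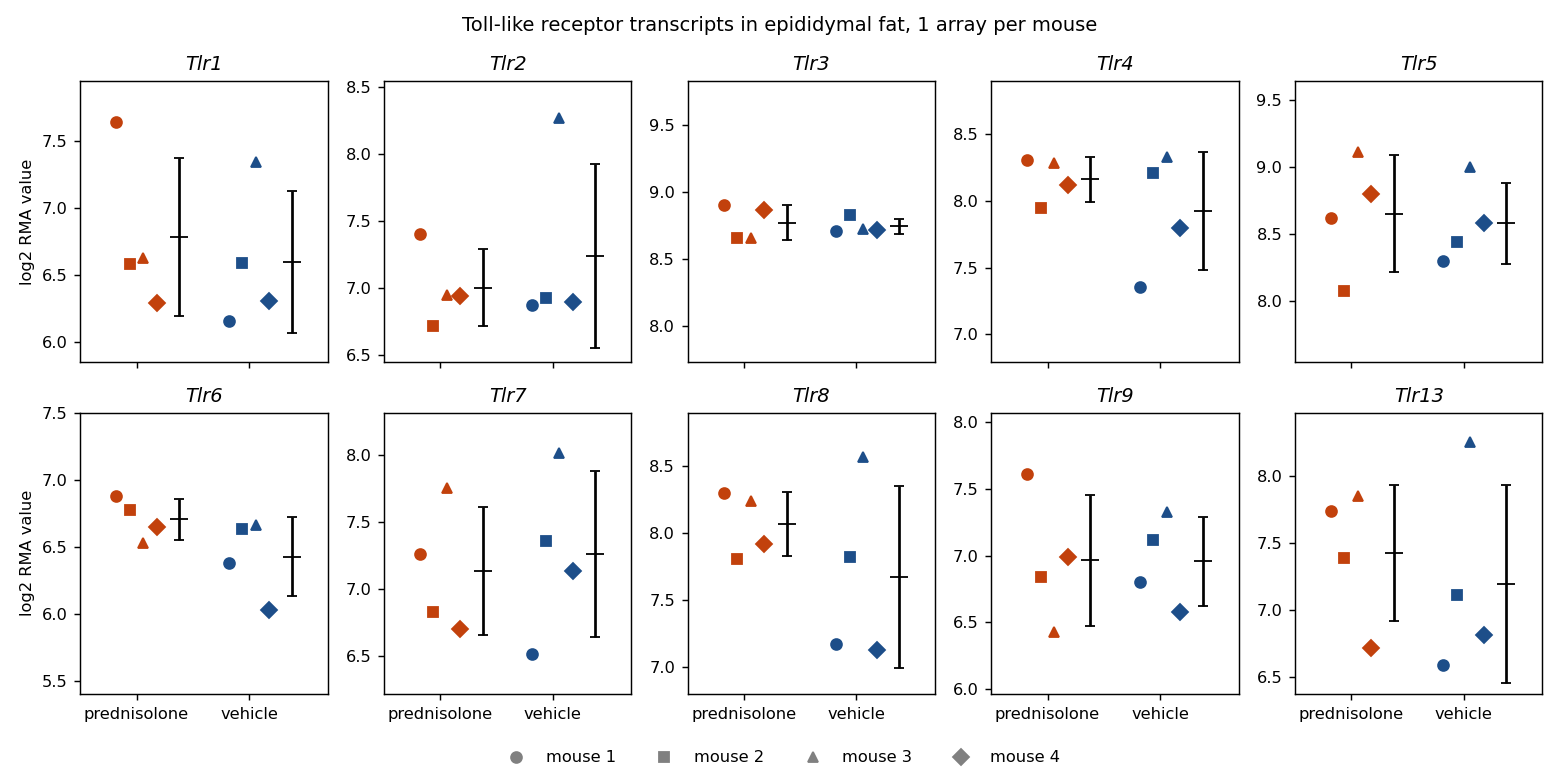
Log2 RMA values of the 10 Toll-like receptor genes (vertical axes, each spanning the same log2 range) in 4 prednisolone mice (left, orange) and 4 vehicle mice (right, blue), with symbols for mice 1 to 4 of each group and bars for the mean ± SD. The groups overlap in every panel, vehicle mouse 3 is highest of its group in 9 panels, and Tlr3 has the least spread.

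Among the surface receptors, the family of Tlr2 and its partners gave no common direction. Tlr2, which binds bacterial lipoproteins as a partner of Tlr1 or Tlr6, read 7.40, 6.72, 6.95 and 6.94 in prednisolone mice 1 to 4, against 6.87, 6.92, 8.27 and 6.89 in vehicle mice 1 to 4. Vehicle mouse 3 stood alone at the top, and the other 3 vehicle mice lay inside the prednisolone range. The means were 7.002 ± 0.29 with prednisolone and 7.24 ± 0.69 with vehicle (SD, n = 4 each), a difference of -0.24 ± 0.32 (SE of the model) with a limma adjusted p of 0.865. The difference of Tlr2 was 0.11 without vehicle mouse 3 and -0.50 without the 3 mice of high epididymis score.

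Tlr1, which with Tlr2 senses triacylated lipoproteins, read 7.65, 6.58, 6.63 and 6.29 in prednisolone mice, against 6.16, 6.59, 7.35 and 6.31 in vehicle mice. In each group 1 mouse was high, prednisolone mouse 1 and vehicle mouse 3, and the other 3 were low. The difference was 0.19 ± 0.34 (adjusted p = 0.899), and it was -0.10 without prednisolone mouse 1 and -0.11 without the 3 mice of high epididymis score. Tlr6, the partner of Tlr2 for diacylated lipoproteins, read 6.88, 6.78, 6.53 and 6.65 in prednisolone mice, against 6.39, 6.63, 6.67 and 6.03 in vehicle mice. All 4 prednisolone mice lay above the vehicle median and 2 of them above every vehicle mouse. Its difference of 0.28 ± 0.15 had the lowest p of the 10 receptors (unadjusted p = 0.102, adjusted p = 0.768, two-sided exact permutation p = 0.143). The smallest p that 4 against 4 can give in that permutation test is 0.0286. Without the 3 mice of high epididymis score the difference was 0.04 for Tlr6. Tlr1 and Tlr6 are neighbouring genes of similar sequence, and how far their probe sets tell them apart is not stated.

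Tlr4, which with Ly96 and Cd14 forms the receptor complex for lipopolysaccharide, read 8.30, 7.94, 8.28 and 8.12 in prednisolone mice, against 7.36, 8.20, 8.33 and 7.80 in vehicle mice. The prednisolone mice lay close together and inside the vehicle range, whose low end was vehicle mouse 1. The difference was 0.24 ± 0.21 (adjusted p = 0.803), and it was 0.05 without vehicle mouse 1 and -0.03 without the 3 mice of high epididymis score. Tlr5, the receptor for flagellin, read 8.63, 8.08, 9.12 and 8.80 in prednisolone mice, against 8.30, 8.44, 9.001 and 8.58 in vehicle mice. Both the highest and the lowest value of Tlr5 were in prednisolone mice, 3 and 2. Its difference was 0.07 ± 0.23 (adjusted p = 0.945), and -0.08 without prednisolone mouse 3, -0.02 without vehicle mouse 1 and 0.12 without the 3 mice of high epididymis score.

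Of the endosomal receptors, Tlr8 had the largest mean difference of the 10 and Tlr3 the steadiest level. Tlr8, a receptor of single-stranded RNA in human cells, read 8.30, 7.81, 8.24 and 7.92 in prednisolone mice, against 7.17, 7.82, 8.57 and 7.13 in vehicle mice. Every prednisolone mouse lay inside the vehicle range, in which mice 1 and 4 were low and mouse 3 was the highest of all 8. The means were 8.07 ± 0.24 and 7.67 ± 0.68 (SD, prednisolone and vehicle), a difference of 0.39 ± 0.31 (adjusted p = 0.787) and a ratio of 1.31. That difference was 0.69 without vehicle mouse 3 (adjusted p = 0.579) and -0.04 without the 3 mice of high epididymis score (adjusted p = 0.989).

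Tlr7, the neighbour of Tlr8 on the X chromosome and a sensor of single-stranded RNA, read 7.26, 6.83, 7.75 and 6.70 in prednisolone mice, against 6.51, 7.36, 8.02 and 7.14 in vehicle mice. All prednisolone mice lay inside the vehicle range. The difference was -0.12 ± 0.34 (adjusted p = 0.936), and leaving out vehicle mouse 3 or prednisolone mouse 4 turned it to 0.13 or 0.02, while it was -0.45 without the 3 mice of high epididymis score. Tlr13, a sensor of bacterial ribosomal RNA, read 7.73, 7.39, 7.85 and 6.72 in prednisolone mice, against 6.59, 7.11, 8.25 and 6.81 in vehicle mice. It had the widest spread of the 10 receptors, with vehicle mouse 3 at the top and vehicle mouse 1 at the bottom. Its difference was 0.23 ± 0.39 (adjusted p = 0.891), 0.59 without vehicle mouse 3 and -0.25 without the 3 mice of high epididymis score.

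Tlr9, which binds unmethylated CpG DNA, read 7.61, 6.84, 6.43 and 6.99 in prednisolone mice, against 6.81, 7.11, 7.32 and 6.58 in vehicle mice. The prednisolone group held both extremes, mouse 1 at the top and mouse 3 at the bottom. The means were 6.96 and 6.96, and the difference was 0.01 ± 0.26 (adjusted p = 0.994). It was -0.20 without prednisolone mouse 1, -0.04 or -0.12 without vehicle mouse 1 or 4, and -0.21 without the 3 mice of high epididymis score. Tlr3, the sensor of double-stranded RNA, read 8.91, 8.66, 8.66 and 8.87 in prednisolone mice, against 8.71, 8.83, 8.73 and 8.72 in vehicle mice. Its values stayed within 0.248 of each other over all 8 mice. The difference was 0.02 ± 0.08 (adjusted p = 0.948), with the sign turned without prednisolone mouse 1 (-0.02) or 4 (-0.01) and a value of 0.03 without the 3 mice of high epididymis score. Its 95% interval, -0.17 to 0.22, was the narrowest of the 10. For Tlr13 the interval ran from -0.65 to 1.12, and for Tlr8 from -0.32 to 1.11, so that the arrays allow a difference of more than 1 on the log2 scale for these receptors.

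**Figure D2:**
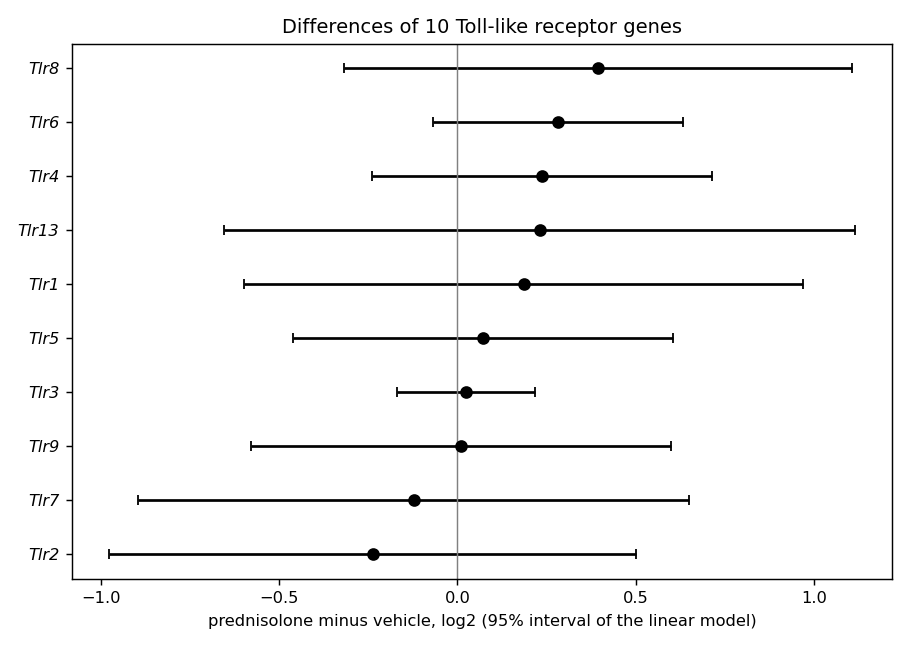
Differences of the 10 receptors, prednisolone minus vehicle, on the log2 scale (horizontal axis), with 95% intervals of the linear model (n = 4 per group), ordered by size. All intervals include 0, and that of Tlr3 is the shortest.

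The promoter windows of Tlr8 and Tlr13, which varied widely between mice, and of Tlr3, which did not, are shown for comparison of their letters. RefSeq windows (build GRCm38.p6) were matched by symbol for 8 of the 10 receptors, in 10 windows, and the 250 bases before the start are used. Capitals mark letters that match either of 2 searched motifs, GAGGAA and AGAACA, on either strand.
Tlr8 (chrX:167264330-167264579, minus strand): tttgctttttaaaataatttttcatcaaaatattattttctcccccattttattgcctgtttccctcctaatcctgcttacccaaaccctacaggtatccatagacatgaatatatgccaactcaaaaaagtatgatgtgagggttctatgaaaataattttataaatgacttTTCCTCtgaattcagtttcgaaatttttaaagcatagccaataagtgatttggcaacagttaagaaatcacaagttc
Tlr13 (chrX:106143025-106143274, plus strand): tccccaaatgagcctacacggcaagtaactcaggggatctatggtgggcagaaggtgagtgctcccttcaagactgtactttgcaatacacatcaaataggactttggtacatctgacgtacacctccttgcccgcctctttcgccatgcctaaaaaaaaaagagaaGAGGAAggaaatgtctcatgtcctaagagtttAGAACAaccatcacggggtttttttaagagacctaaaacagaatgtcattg
Tlr3 (chr8:45410381-45410630, minus strand): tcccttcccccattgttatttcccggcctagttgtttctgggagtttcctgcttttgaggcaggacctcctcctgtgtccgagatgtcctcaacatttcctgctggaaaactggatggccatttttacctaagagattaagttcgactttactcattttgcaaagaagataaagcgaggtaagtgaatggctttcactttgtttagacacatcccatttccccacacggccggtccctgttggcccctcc
The capitals in Tlr8 and the first capitals in Tlr13 match GAGGAA, the core bound by PU.1, a transcription factor of myeloid cells. That motif was present in 4 of the 10 receptor windows, of Tlr1, Tlr8, Tlr9 and Tlr13, and in 23.3% of all 32841 windows of this length. It was absent from the window of Tlr2, whose SD between mice, pooled over the groups, was 0.527. It was also absent from 1 of the 2 windows of Tlr1 (SD 0.561), while Tlr9, with a smaller SD of 0.416, had a match. No window was available for Tlr4 (SD 0.332) and Tlr7 (SD 0.553). Whether the motif has a part in the spread between mice was not tested. The other capitals in Tlr13 match AGAACA, letters that recur in elements bound by the glucocorticoid receptor, present in 1 receptor window and in 16.1% of all windows. The window of Tlr3 held neither motif, and the matches do not overlap each other. Such matches describe letters and do not show binding.

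In 9 of the 10 receptors, all but Tlr6, the SD between mice, pooled over both groups, was larger than the difference between the groups, and many receptors were high or low in the same mice. Of the 4 vehicle mice, mouse 3 was highest for 9 of the 10 receptors, the exception being Tlr3. Vehicle mouse 1 was lowest for 7 receptors and vehicle mouse 4 for the other 3, Tlr6, Tlr8 and Tlr9. Of the 4 prednisolone mice, mouse 1 was highest for 7 receptors and mouse 3 for Tlr5, Tlr7 and Tlr13. The mean of the 10 receptors, each minus its 8-array mean, was 0.35, -0.15, 0.13 and -0.11 in prednisolone mice 1 to 4, against -0.43, -0.01, 0.54 and -0.32 in vehicle mice 1 to 4. The vehicle mice spanned the whole prednisolone range and went beyond it at both ends. Vehicle mice 1 and 4, and prednisolone mouse 2, which was lowest of its group for 5 receptors, were the 3 mice of high epididymis score. The part of epididymal tissue in these values was not tested. Pooled SDs of Tlr1, Tlr2, Tlr7, Tlr8 and Tlr13 were between 0.508 and 0.635, above those of 93.1% to 95.6% of tested genes. The SD of Tlr3 was 0.101, above that of 15.9% of tested genes.

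**Figure D3:**
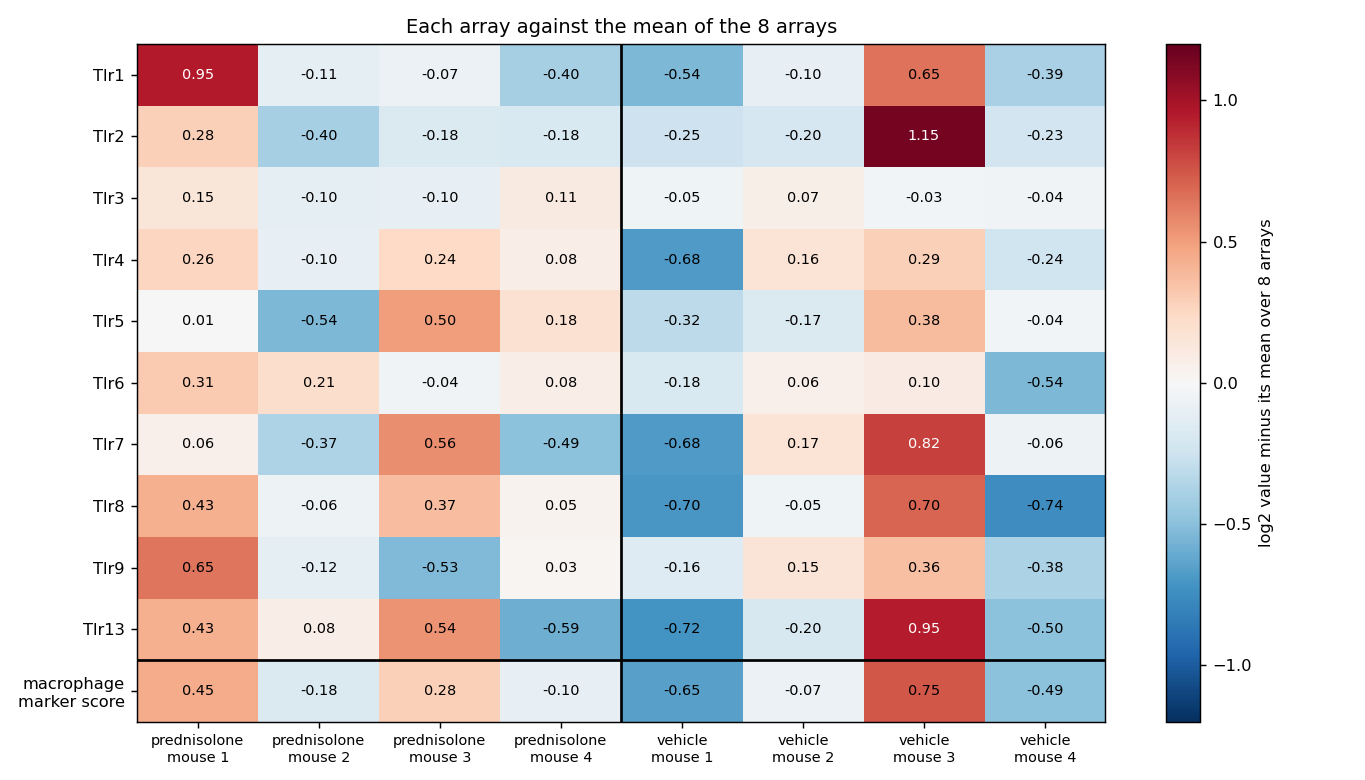
Log2 values of the 10 receptors minus their mean over the 8 arrays (colour and printed number) in prednisolone mice 1 to 4 (left) and vehicle mice 1 to 4 (right), with the score of 15 macrophage markers in the bottom row. Vehicle mouse 3 and prednisolone mouse 1 are high in most rows, and vehicle mice 1 and 4 are low.

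Macrophage markers differed between the same mice. The score of 15 markers, among them Adgre1, Cd68, Csf1r and C1qa, was 0.45, -0.18, 0.28 and -0.10 in prednisolone mice 1 to 4, against -0.65, -0.07, 0.75 and -0.49 in vehicle mice 1 to 4. It was lowest in vehicle mice 1 and 4 and prednisolone mouse 2, the mice of high epididymis score. The mean level of the list lay between 9.27 and 9.90 in prednisolone mice and between 8.80 and 10.20 in vehicle mice, and none of its 15 markers was among the dimmest 33.3% of genes. On average 13 markers were higher and 2 lower with prednisolone, 0 passed the adjusted threshold, and their median difference was 0.25. In whole tissue, fewer cells of a type and less RNA per cell cannot be told apart. The parts of macrophage number and of epididymal tissue in the receptor values were not tested.

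Tlr8 followed the macrophage score most closely of the 10, with Pearson's r of 0.972 over the 8 arrays (exact permutation p = 0.000174) and Spearman's rho of 0.952 (p = 0.00114). Its r was above that of 99.9% of the 14772 tested genes outside the marker list. Tlr13 had an r of 0.919 (rho 0.857), Tlr4 of 0.877 (rho 1.0), Tlr1 of 0.861 (rho 0.905), Tlr7 of 0.807 (rho 0.833) and Tlr2 of 0.79 (rho 0.905), with exact permutation p of r between 0.00164 and 0.0165. Lower values were found for Tlr5 (r = 0.646, rho 0.69), Tlr6 (0.617, rho 0.595), Tlr9 (0.557, rho 0.595) and Tlr3 (0.219, rho 0.429), with exact permutation p of r between 0.0842 and 0.589. After Benjamini-Hochberg adjustment over the 14772 genes, 0 receptors passed 0.05 by Pearson's r, where 0.122% of genes did, and the adjusted p of Tlr8 was 0.0749. By rank 1 receptor passed, Tlr4 (exact permutation p = 4.96e-05, the smallest that 8 arrays can give, adjusted p = 0.0366), where 0.135% of genes did. Without vehicle mice 1 and 3, the farthest from the median score, r was 0.952 for Tlr8, 0.92 for Tlr4 and 0.809 for Tlr13. In that set it was 0.788 for Tlr1, 0.715 for Tlr2, 0.69 for Tlr6 and 0.49 for Tlr7. The lowest were Tlr9 (0.47), Tlr5 (0.427) and Tlr3 (0.337). With the group means taken out, r was 0.982 for Tlr8, 0.917 for Tlr2, 0.916 for Tlr13, 0.878 for Tlr7 and 0.871 for Tlr4. Below these came Tlr1 (0.857), Tlr5 (0.644), Tlr6 (0.59), Tlr9 (0.574) and Tlr3 (0.191). The correlations were not computed without the mice of high epididymis score, which were also the lowest in macrophage score.

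**Figure D4:**
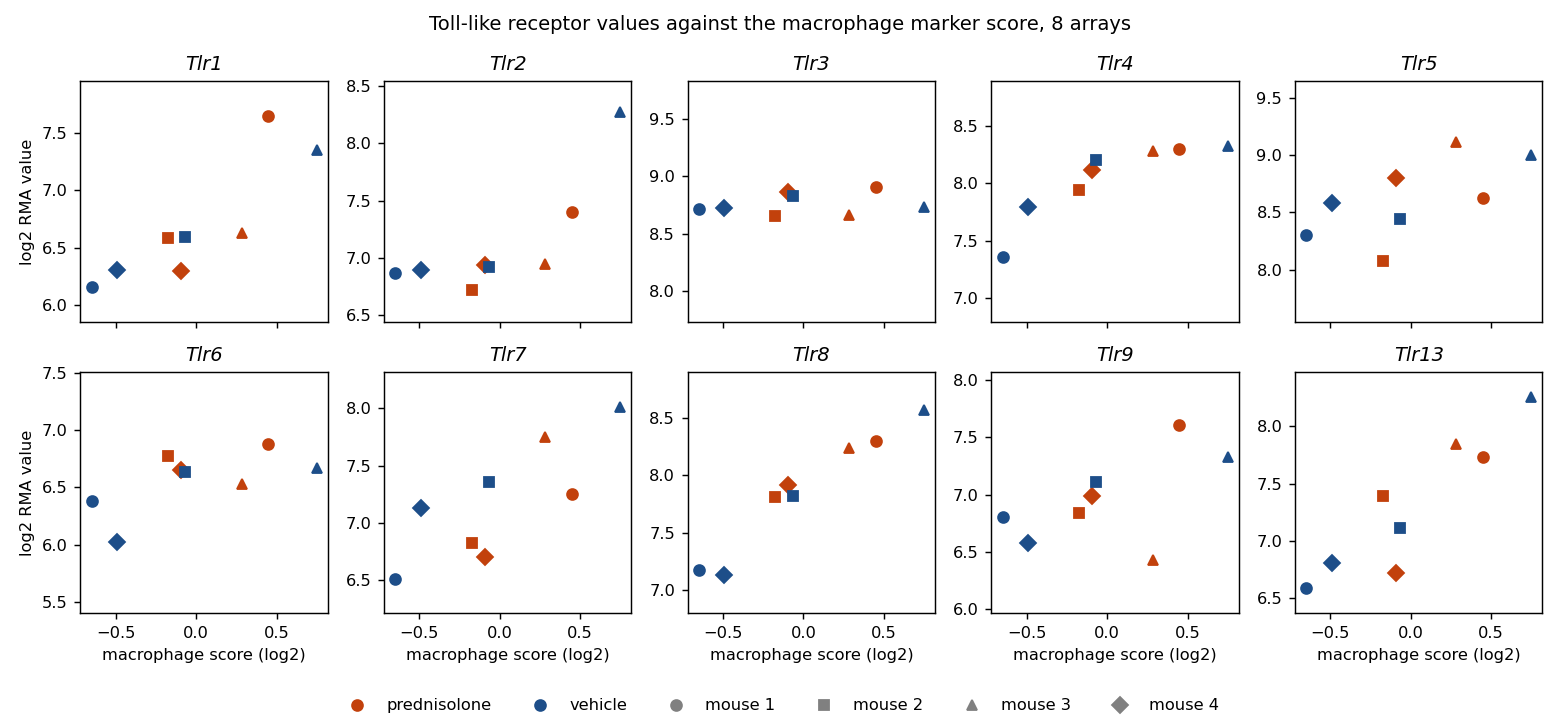
Log2 RMA values of each receptor (vertical axes, each spanning the same log2 range) against the macrophage marker score of the array (horizontal axis, log2), for 4 prednisolone mice (orange) and 4 vehicle mice (blue), with symbols for mice 1 to 4. Points of Tlr8 lie close to a rising line (r = 0.972), and those of Tlr3 are nearly level (r = 0.219).

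Markers of other leukocytes were mixed. Of 7 measured markers of conventional dendritic cells 1, Xcr1, was among the dimmest 33.3% of genes, and Cd209a averaged 9.36 in prednisolone mice and 9.46 in vehicle mice. The mean of that list was 6.57 to 7.01 with prednisolone and 6.64 to 6.91 with vehicle. Of 6 measured markers of plasmacytoid dendritic cells, which use Tlr7 and Tlr9, 3 were among the dimmest 33.3% (Ccr9, Klk1 and Spib), while Bst2, which other cells express as well, averaged 9.24 with prednisolone and 9.21 with vehicle. The mean of this list was 5.63 to 6.22 in prednisolone mice and 5.83 to 6.05 in vehicle mice. Of 6 measured B cell markers 1, Ms4a1, was among the dimmest 33.3%, and the list mean was 5.70 to 6.00 with prednisolone and 5.86 to 6.099 with vehicle. Of 7 neutrophil markers 4 were among the dimmest 33.3%, and the list mean was 5.24 to 5.70 with prednisolone and 5.31 to 5.74 with vehicle. Of 7 measured T and NK cell markers 4 were among the dimmest 33.3%, and the list mean was 5.51 to 6.08 with prednisolone and 5.63 to 5.85 with vehicle. The receptors were correlated with the macrophage score only and not with scores of these lists, and the part of these cells in the receptor values was not tested.

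The 14777 tested genes outside the receptors were searched by Pearson's r, so receptors were not set against each other. For each receptor, the gene with the highest r over the 8 arrays is named. For Tlr8 it was Adgre1, a surface marker of mouse macrophages (r = 0.987, and 0.995 without the 2 mice farthest from the median of Tlr8). For Tlr1 it was Fcgr1, the high-affinity Fc gamma receptor of macrophages (0.991), and for Tlr4 it was Clec10a, a macrophage lectin (0.987). The nearest genes of the others were Cdca2 for Tlr2 (0.982), Eef1a2 for Tlr5 (0.976), Hivep3 for Tlr6 (0.975), Txndc12 for Tlr7 (0.969), Gad1os for Tlr9 (0.966), Kcp for Tlr3 (0.964) and Gmnn, a licensing inhibitor of DNA replication, for Tlr13 (0.958). The likeness of Tlr2 and Cdca2 rested on few mice, since r was 0.59 without 2 of them. Each is the highest of many values over 8 arrays and carries no p.

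Genes that act with the receptors did not pass the test either. Of 14 co-receptors, chaperones and proteases that process endosomal receptors, 11 were higher and 3 lower on average, 0 passed, and the median difference was 0.11. Ctss, a cathepsin that cleaves endosomal receptors, differed by 0.51 ± 0.23, Ctsb by 0.21 ± 0.09 and Lbp, which carries lipopolysaccharide, by 0.39 ± 0.22 (adjusted p = 0.768 for each). Cd14, which hands lipopolysaccharide to Tlr4, read 8.32, 7.75, 7.87 and 7.91 in prednisolone mice, against 7.33, 7.75, 8.79 and 7.52 in vehicle mice. Vehicle mouse 3 was again the highest and vehicle mouse 1 the lowest, and the difference was 0.12 ± 0.30. Ly96, which encodes MD-2 of the Tlr4 complex, differed by 0.02 ± 0.10, and Unc93b1, the chaperone that carries nucleic acid receptors to endosomes, by 0.21 ± 0.24.

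Of 24 listed adaptors and kinases 20 were measured, and of these 13 were higher and 7 lower, 0 passed, and the median was 0.04. Tirap, the adaptor that bridges Tlr2 and Tlr4 to Myd88, differed by 0.22 ± 0.10, the kinase Irak1 by -0.31 ± 0.16 and the ubiquitin ligase Traf6 by -0.12 ± 0.07 (adjusted p = 0.768 for each). Myd88 read 9.11, 8.84, 8.77 and 8.55 in prednisolone mice, against 9.58, 8.70, 8.88 and 9.32 in vehicle mice. It was highest in vehicle mice 1 and 4, in which most receptors were low and the epididymis score was high. Prednisolone mouse 2, which had the highest epididymis score (3.69), read 8.84, below prednisolone mouse 1. Whether epididymal tissue had a part in the Myd88 values was not tested. The difference of Myd88 was -0.30 ± 0.21 (limma adjusted p = 0.771). Ticam1 differed by 0.07 ± 0.10. Of 10 listed NF-kB and interferon regulatory factors 8 were measured, and of these 6 were higher and 2 lower, 0 passed, and the median was 0.05. Irf3, which Ticam1 signalling activates, differed by 0.15 ± 0.07, Irf1 by -0.26 ± 0.15, Nfkb2 by 0.12 ± 0.13 and Irf7 by -0.09 ± 0.50.

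Of 15 listed negative regulators 14 were measured, and of these 9 were higher and 5 lower, 0 passed, and the median was 0.07. Atf3, a repressor of cytokine genes, read 8.16 to 8.37 in prednisolone mice and 7.60 to 7.89 in vehicle mice, so that the groups did not overlap, as in 3.2% of all tested genes, and differed by 0.44 ± 0.09. The inhibitory receptor Lilrb4a differed by 0.68 ± 0.21 and Nfkbia, the inhibitor of NF-kB that glucocorticoids are known to induce, by -0.47 ± 0.20 (adjusted p = 0.768 for the 3 genes). Nfkbia read 9.31, 9.29, 9.51 and 9.55 in prednisolone mice, against 9.45, 9.61, 10.34 and 10.12 in vehicle mice. Vehicle mice 2, 3 and 4 were above every prednisolone mouse, and vehicle mouse 1 lay inside the prednisolone range. Tnfaip3, a deubiquitinase that ends NF-kB signalling, differed by -0.04 ± 0.17.

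Of 15 cytokine, chemokine and enzyme genes that the receptors induce, 6 were among the dimmest 33.3% of genes and not tested, among them Il1b with means of 5.78 and 5.65 (prednisolone and vehicle). The other 9 were all higher on average in prednisolone mice, with a median difference of 0.13, and 0 passed. The chemokines Ccl2, Ccl3 and Cxcl1 differed by 1.05 ± 0.38, 0.74 ± 0.28 and 0.40 ± 0.12, and Tnf by 0.29 ± 0.12 (adjusted p = 0.768 for each). Cxcl1 was the other pathway gene whose groups did not overlap, at 6.21 to 6.72 in prednisolone mice and 5.89 to 6.19 in vehicle mice. That made 1 of the 9 tested genes here, 1 of 14 negative regulators and 0 in the other pathway lists. Over all tested genes the share was 3.2%. Ccl2 read 9.59, 8.53, 8.94 and 8.02 in prednisolone mice, against 7.60, 8.22, 8.12 and 6.93 in vehicle mice. Vehicle mouse 3, the highest vehicle mouse for most receptors, was not the highest for Ccl2. The macrophage marker score averaged 0.23 higher in prednisolone mice, and its part in these differences was not tested. The plot of pathway genes sets the receptor differences beside those of these lists.

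**Figure D5:**
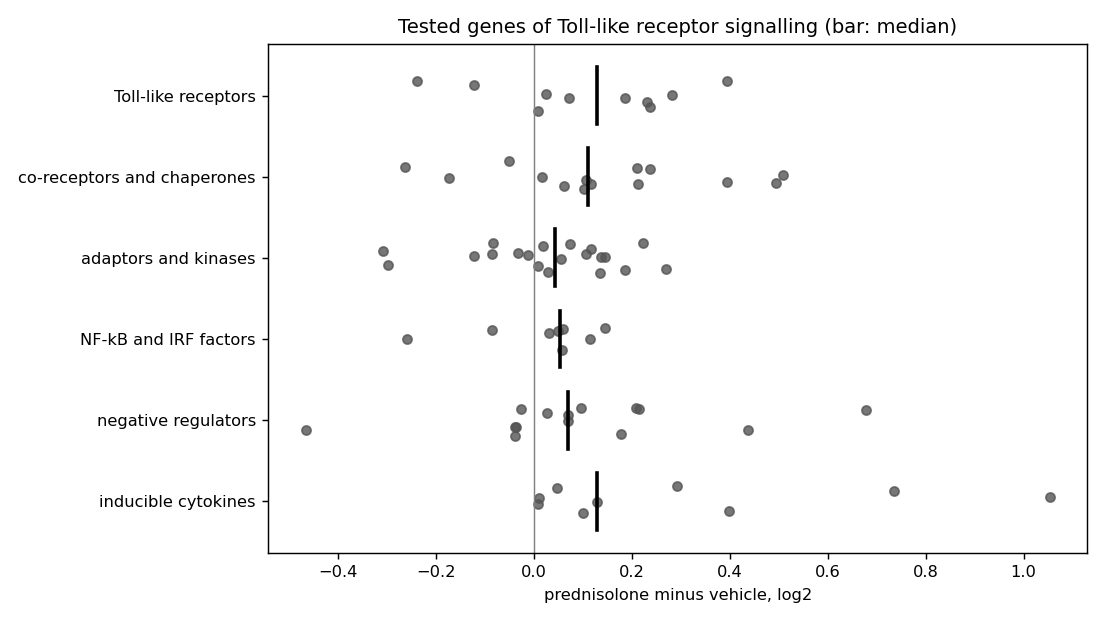
Differences, prednisolone minus vehicle, on the log2 scale (horizontal axis) for each tested gene of the receptors and of 5 lists of genes that act with them (rows), with a bar at each list's median. The medians lie between 0.04 and 0.13, and single genes range from -0.47 for Nfkbia to 1.05 for Ccl2.

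Mice have a further pair of receptor genes outside the 10, Tlr11 and Tlr12, which recognise protozoan profilin. Tlr11 read 6.23, 5.48, 5.58 and 6.07 in prednisolone mice, against 5.69, 6.37, 6.26 and 6.38 in vehicle mice, close to the level of 5.82 below which genes were left out. Its difference was -0.33 ± 0.22 (adjusted p = 0.768). Tlr12 was below that level, with means of 5.72 and 5.58 (prednisolone and vehicle).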

How the data were processed

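The deposited values are log2 RMA expression values of the authors' making, per the sample descriptions in the labels, from Affymetrix Expression Console; RMA, Expression Console and Partek 6.6 are listed in the submitters' processing notes. RMA corrects background, equalises the arrays' distributions and summarises probes, which removes any shift shared by all genes. No genome build or annotation version is stated. Of 41345 probe sets, 23521 had 1 symbol in the platform annotation, and 23328 of these were matched to RefSeq (GRCm38.p6) by Entrez identifier, changing 0 symbols. Each gene kept its brightest probe set over 8 arrays, giving 22180 genes. The dimmest 33.3%, below 5.82, were left out, and all 10 receptors were kept.

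Differences were fitted with limma 3.58.1 in R 4.3.3 (lmFit, eBayes) with no covariate, adjusted over all 14787 genes. The fit was also run on simulated data with errors independent between genes, which lack the variation that genes of an array share. Labels call the replicates biological; the number of arrays limits precision. Replicate numbers were tried as a block because both groups share them. The members and lists were chosen with earlier results of these data known. Named genes are the 10 receptors, Tlr11, Tlr12, the 3 tested genes of lowest p in each pathway list, the fixed genes Cd14, Ly96, Unc93b1, Myd88, Ticam1, Irf5, Irf7, Nfkbia, Tnfaip3, Tnf and Il1b, and the nearest gene of each receptor. Irf5 had no single-symbol probe set. The correlations with the macrophage score were added after the data were seen. Motif searches covered the letters given, on both strands. Figures used matplotlib 3.10.9.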

Additional observations from a re-analysis of the deposited data

Results flagged for a closer look

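In 2 of the 20 sets of 4 values (10 receptors in 2 groups) 1 mouse lay far from the other 3, by a gap above Dixon's 95% critical value. Chance flags about 1 in 20 such sets. Tlr2 read 8.27 in vehicle mouse 3, with a gap of 0.963 of the range, and this mouse also had the highest macrophage marker score. Tlr3 read 8.83 in vehicle mouse 2, with a gap of 0.853 of a narrow range, 8.71 to 8.83.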

How the results depend on the processing

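No receptor passed the adjusted threshold in any of 10 alternatives or 8 fits without 1 mouse. Over all genes 0 passed in each of these, except with the epididymis score as a covariate, where 1 did (Peg10, 0.99 ± 0.08, limma adjusted p = 0.0387). Repeated normalization, centring of the arrays, array weights and the covariate turned the direction of no receptor. The filter, probe set choice, variance model and block could not change a difference, since each receptor has 1 probe set and the groups are of equal size. Leaving out the 3 mice of high epididymis score gave -0.11 for Tlr1, -0.034 for Tlr4, -0.043 for Tlr8, -0.21 for Tlr9 and -0.25 for Tlr13, in a fit with 2 vehicle mice. Tlr2 and Tlr7 stood at -0.50 and -0.45, Tlr6 at 0.04, Tlr5 at 0.12 and Tlr3 at 0.03, and the receptor median was then -0.08. The cause was not tested. Without 1 mouse in turn, differences ran from -0.10 to 0.44 for Tlr1, -0.37 to 0.11 for Tlr2, -0.020 to 0.063 for Tlr3, -0.082 to 0.26 for Tlr5, -0.37 to 0.13 for Tlr7 and -0.20 to 0.19 for Tlr9, each crossing 0. They kept their sign for Tlr4 (0.05 to 0.37), Tlr6 (0.15 to 0.36), Tlr8 (0.21 to 0.69) and Tlr13 (0.03 to 0.59), and the receptor median ran from 0.02 to 0.29. With array weights the median was 0.31. With the dimmest 50% of genes left out, Tlr6 was not tested. The replicate number as a block left every difference as it was, as it must in this balanced design (Tlr8 0.39, limma adjusted p = 0.937), and 0 genes were called. Deviations of same-numbered mice correlated at -0.19, -0.58, 0.13 and -0.28. These few values, with the wide spread between mice, cannot decide whether the numbers pair the mice. The precision is limited by 4 arrays per group.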
